A study of Mus musculus with 2 samples.

Results

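Mitochondria join and divide continuously, and 6 genes encode the central proteins of that balance: Mfn1, Mfn2 and Opa1 for fusion, and Dnm1l, Mff and Fis1 for fission. Their transcripts were followed in long-read RNA sequencing of mouse gastrocnemius, the large calf muscle, by taking every transcript model that the deposited tables assign to these gene names. The 6 genes held 149 of 75228 models in replicate 1 and 140 of 94598 in replicate 2, and are 6 of 15521 annotated genes with reads. The samples were 2 gastrocnemius muscles of female B6CASTF1/J mice, an F1 cross of C57BL/6J and CAST/EiJ, aged 25 days, with 1 library each from 2 µg of total RNA. The labels make them replicates 1 and 2 of 1 group, with no treatment or mutation named, and give the same donor record for both. With 1 group there is no contrast between conditions, and every test below compares the reads of the 2 libraries. Ratios are replicate 1 over replicate 2.

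Fusion of the outer membrane is carried out by the mitofusins Mfn1 and Mfn2, large GTPases anchored in it, and fusion of the inner membrane by Opa1, a dynamin-related GTPase that also shapes cristae. Fission is driven by the dynamin-related GTPase Dnm1l, also called Drp1, which is recruited from the cytosol by outer-membrane proteins such as Mff and wraps around the organelle. Fis1 is a small tail-anchored outer-membrane protein also assigned to fission. In skeletal muscle, mitochondria lie between the myofibrils and beneath the plasma membrane, and slow fibres and fast fibres differ in how many they hold. Several of these genes are alternatively spliced, and a read that covers a transcript from its first to its last intron shows which exons were joined in the same molecule.

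The libraries held 1069771 and 1557594 mouse reads, so a gene at 0 reads could still be at up to 2.80 CPM (reads per 1000000 mouse reads) in replicate 1 and 1.93 CPM in replicate 2. Markers of fast muscle fibres summed to 319194 CPM in replicate 1 and 216992 CPM in replicate 2, so the defining markers of skeletal muscle were present. Of these 7 genes, 3 were higher and 4 lower in replicate 1, with a median log2 ratio of -0.02. The sum follows Atp2a1 most, at 157924 CPM in replicate 1 and 56409 CPM in replicate 2. Higher and lower here are calls of the Fisher exact test given below, which called 14.9% of 8892 genes higher and 11.1% lower in replicate 1. By these calls, 6 of 6 slow-fibre genes (983 and 7486 CPM in sum) and 5 of 5 tendon genes (50.5 and 363 CPM) were lower in replicate 1. Called higher were 5 of 5 blood genes (1235 and 415 CPM), 5 of 5 adipocyte genes (408 and 92.5 CPM) and 4 of 4 smooth muscle genes (135 and 47.5 CPM). Other sets were less uniform. Of 5 fibroblast genes 2 were higher and 1 lower, and of 5 endothelial genes 2 were higher. Of 3 tested Schwann cell and nerve genes 2 were higher, and of 4 tested leukocyte genes 1 was lower. No read was found for any of the 5 neuron markers in either library, among them Snap25, Syt1 and Rbfox3. In a whole muscle, fewer cells of a type and less RNA per cell cannot be told apart. What part these differences have in the results below was not tested.

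Mfn2 was the most abundant of the 6 transcripts in both libraries, and the means of the others lay between 49.6 and 141 CPM. Mfn2 had 768 reads in replicate 1 and 452 in replicate 2, which is 718 CPM (95% exact Poisson interval 668 to 771) and 290 CPM (264 to 318), or 504 ± 302 CPM (SD, n = 2). It took 57.1% of the 6 genes' reads in replicate 1 and 40.1% in replicate 2, and ranked 179 of 15521 genes by mean CPM. There were 4.29 Mfn2 reads for each read of its paralog Mfn1 in replicate 1 and 2.54 in replicate 2.

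Mfn1 had 179 reads and 178 reads, giving 167 CPM in replicate 1 and 114 CPM in replicate 2 (141 ± 37.5, SD, n = 2). Opa1 had 106 reads and 63 reads, giving 99.1 CPM in replicate 1 and 40.4 CPM in replicate 2 (69.8 ± 41.5, SD, n = 2). Among the fission genes Mff was the most read by mean CPM, with 153 reads and 185 reads, or 143 CPM in replicate 1 and 119 CPM in replicate 2 (131 ± 17.1, SD, n = 2). Mff was the member closest between the libraries. Fis1 had 69 reads and 194 reads, or 64.5 CPM in replicate 1 and 125 CPM in replicate 2 (94.5 ± 42.5, SD, n = 2), and was the only 1 of the 6 with the lower value in replicate 1. Dnm1l, the motor of fission, had the lowest mean CPM over all models, level with Fis1 in replicate 1, with 69 reads and 54 reads, or 64.5 CPM in replicate 1 and 34.7 CPM in replicate 2 (49.6 ± 21.1, SD, n = 2).

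In order of mean CPM the genes ran Mfn2, Mfn1, Mff, Fis1, Opa1 and Dnm1l. The 2 values of Mfn2 lay above both values of Mfn1, the next in the order, while the ranges of every later pair of neighbours overlapped. Dnm1l still ranked 1971 of 15521, at or above 87.3% of the genes with reads. Reads of the fusion genes outnumbered those of the fission genes 3.62 to 1 in replicate 1 and 1.60 to 1 in replicate 2. This excess rested on Mfn2, with 57.1% of the 6 genes' reads in replicate 1 and 40.1% in replicate 2. Without Mfn2, fusion reads did not outnumber fission reads in either library. In a long-read count a read stands for a molecule whatever its length, and divided by the length of the most read complete model, a scale chosen after seeing the data, the order changes. Mean levels were then 120 CPM per kb for Fis1, 116 for Mfn2, 69.1 for Mff, 30.9 for Mfn1, 12.5 for Dnm1l and 11.2 for Opa1.

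**Figure D1:**
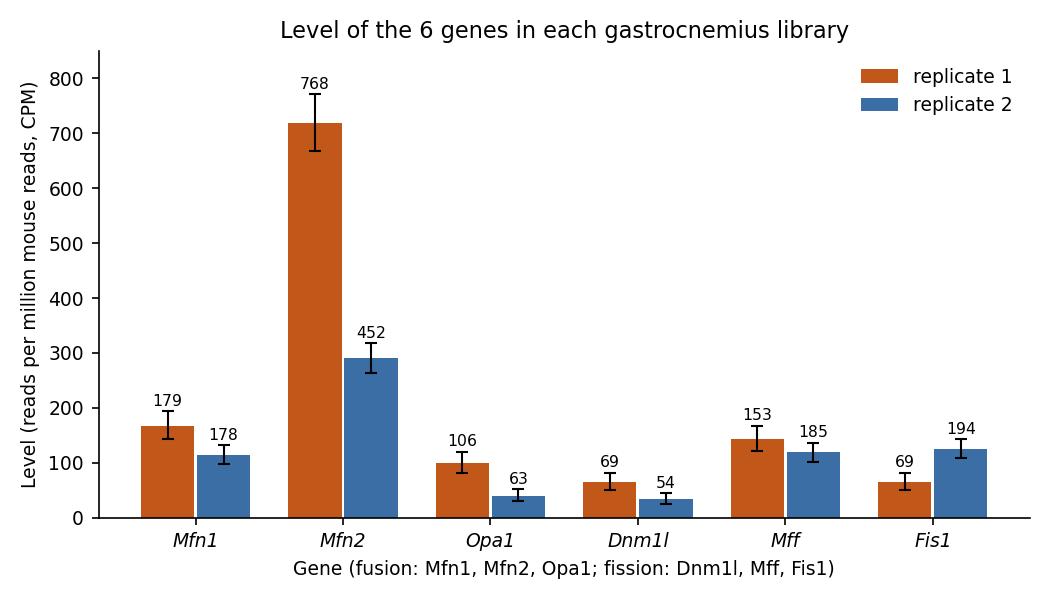
Level of each gene, in CPM on a linear axis, in replicate 1 (left bar) and replicate 2 (right bar), with 95% exact Poisson intervals that cover counting error only and the number of reads above each bar. Mfn2 stands at 718 and 290 CPM, above the other 5 genes plotted, and Fis1 alone is lower in replicate 1.

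The reads of 4 of the 6 genes were higher in replicate 1 and those of 1 were lower, by two-sided Fisher exact tests of each gene's reads against the rest of the library with Benjamini-Hochberg adjustment over 8892 genes with 10 or more reads. Across all those genes 26.0% differed, 14.9% higher and 11.1% lower in replicate 1, and the median log2 ratio was 0.18. Calls were more frequent among well-read genes. With a minimum of 50 reads, which all 6 genes exceed, 1979 of 4214 genes were called, and 5 of the 6. The log2 ratio was 1.31 for Mfn2 (95% interval 1.14 to 1.48, adjusted p = 5.21e-53) and 1.29 for Opa1 (0.83 to 1.77, adjusted p = 1.75e-07). Dnm1l had 0.89 (0.36 to 1.44, adjusted p = 0.00425) and Mfn1 had 0.55 (0.24 to 0.86, adjusted p = 0.00266). Fis1 was lower in replicate 1, with a log2 ratio of -0.94 (-1.37 to -0.55, adjusted p = 1.45e-05). Mff had 0.27 (-0.05 to 0.58, adjusted p = 0.232). Mfn1 did not pass when the libraries were scaled by TMM or DESeq2 size factors (log2 ratio 0.37 with either, adjusted p = 0.0643 and 0.0639 in exact binomial tests), a scaling that lowers all ratios by 0.18.

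Transcript length moved with the ratio. The median log2 ratio was -0.92 over 499 genes of up to 750 bases and 0.67 over 1099 genes longer than 5000 bases. The most read Fis1 model was 786 bases long, that of Mff 1894 bases, and those of Dnm1l, Mfn2, Mfn1 and Opa1 were 3951, 4341, 4562 and 6230 bases. Once the trend of the ratio on length was taken out, Mfn2 alone of the 6 passed, with a log2 ratio of 0.71 (exact binomial test, adjusted p = 3.03e-15), beside 13.1% of 8752 genes with a length. Opa1 was then at 0.62 (adjusted p = 0.0521), Dnm1l at 0.33 (adjusted p = 0.519), Mff at 0.21 (adjusted p = 0.487), Mfn1 at -0.07 (adjusted p = 0.902) and Fis1 at -0.27 (adjusted p = 0.476). These tests treat counting as the only error. At an assumed dispersion of 0.04 between animals, edgeR's exact test called none of the 6 (adjusted p = 0.0724 for Mfn2) and 200 genes in all, 2.25% of those tested.

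**Figure D2:**
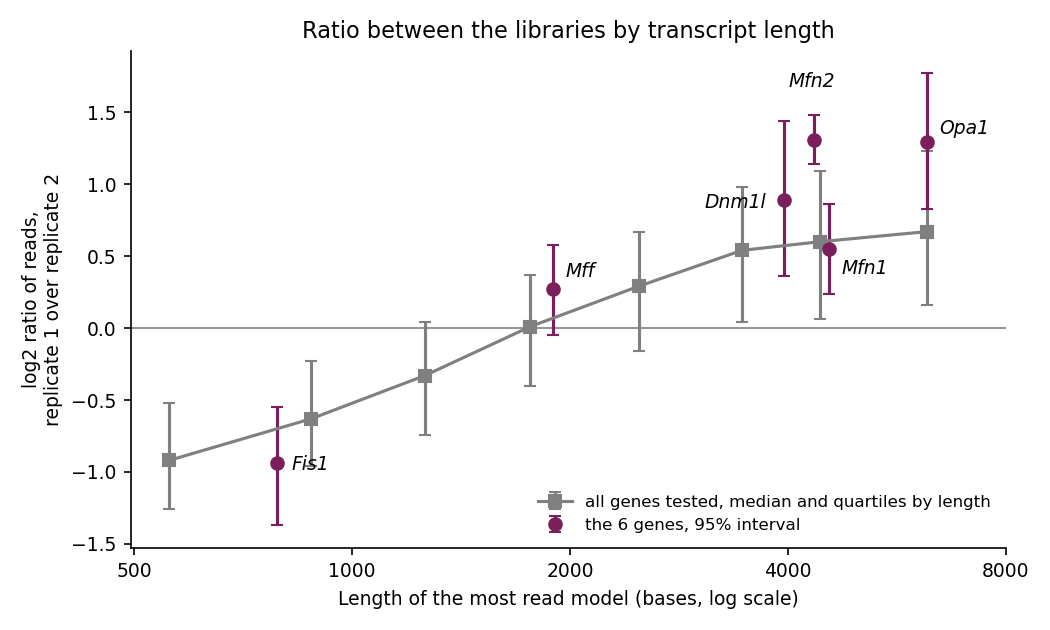
Log2 ratio of reads, replicate 1 over replicate 2, against model length in bases (log axis), taken from the most read model. Circles are the 6 genes with 95% intervals, and squares give the median and quartiles of all genes tested in 8 classes of length. The squares climb with length, Mfn1 (0.55) lies on them, and Mfn2 (1.31) lies above.

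The genes nearest to each member in level over the 2 libraries were found by the distance in log2(CPM + 1) among protein-coding genes. The nearest to Mfn2 was Mknk2, with 753 reads in replicate 1 and 444 in replicate 2, followed by Nrap, which encodes a muscle protein of the myotendinous junction. Opa1 lay nearest to Arrdc2 and Cand2, Mfn1 to Ppp1r2 and Uqcc1, and Dnm1l to Homer1 and Rhbdl1. Mff lay nearest to Ubl4a and Oat, and Fis1 to Mrpl53 and Chmp2a. With 2 libraries such a distance orders genes by 2 values each and carries no test.

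Most reads of these genes covered a whole chain of introns. A read was taken as complete where its model was annotated (known), a new combination of annotated splice sites (NIC) or had an unannotated splice site (NNC), as opposed to a truncated chain (ISM) or an unspliced or partly intronic one (genomic). Of the reads of the 6 genes together, 87.0% were complete in replicate 1 (95% Clopper-Pearson interval 85.1 to 88.7) and 78.8% in replicate 2 (76.3 to 81.1), against 89.3% and 82.2% over all annotated genes. Mff had the highest share, at 98.0% in replicate 1 and 97.8% in replicate 2. Opa1, the longest, had 95.3% in replicate 1 and 88.9% in replicate 2. Mfn1 and Mfn2 had 154 of 179 and 639 of 768 reads complete in replicate 1, and 122 of 178 and 316 of 452 (68.5% and 69.9%) in replicate 2. Of the remainder, Mfn2 had 93 truncated and 36 genomic reads in replicate 1 and 80 and 56 in replicate 2, and Mfn1 had 11 and 14 in replicate 1 and 16 and 40 in replicate 2.

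How much of a gene was annotated differed widely among the 6. Chains outside the GENCODE M21 annotation made up a mean of 68.3% of the complete reads of Mff and 66.8% of those of Opa1, against 29.4% for Dnm1l, 24.1% for Mfn2, 6.61% for Mfn1 and 0 for Fis1. The median over 3525 genes with 20 or more complete reads in each library was 4.99%. Of those genes, 176 had a higher share than Mff and 182 a higher share than Opa1. Counted over the reads of all annotated genes together, such chains made up 26.9% of complete reads in replicate 1 and 13.7% in replicate 2. The 6 genes together had 31.6% and 28.1%. In Mff and Opa1 these reads were mainly new combinations of annotated splice sites, 95 of 150 complete Mff reads in replicate 1 and 118 of 181 in replicate 2, and 61 of 101 and 33 of 56 for Opa1. In Mfn2 they were mainly chains with an unannotated site, 124 of 639 reads in replicate 1 and 47 of 316 in replicate 2.

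**Figure D3:**
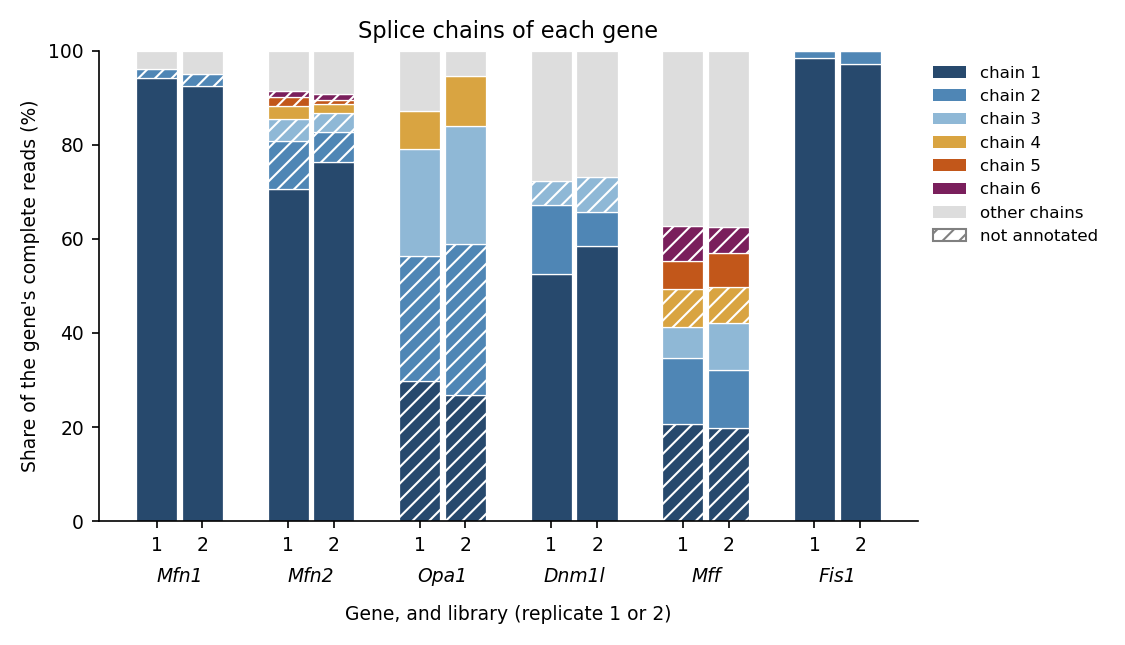
Share of each gene's complete reads (%) held by its most read chains, in replicate 1 (left bar) and replicate 2 (right bar). Chains are numbered within each gene by reads, hatching marks chains outside the annotation and grey marks all other chains. Mfn1 and Fis1 are nearly all chain 1, while the first chain of Mff holds 20.7% and 19.9%.

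Mfn1, the first of the fusion genes, was read almost wholly as 1 chain. The annotated 18-exon Mfn1-201, with an open frame of 741 codons, held 145 of 154 complete reads in replicate 1 and 113 of 122 in replicate 2 (94.2% and 92.6%). The only other chain with 5 or more reads had 3 reads in each library and differed in the donor site of the first, untranslated exon, leaving the frame at 741 codons. Of 10 annotated transcripts of Mfn1, 1 had complete reads.

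Mfn2 varied mainly in its untranslated leader. The annotated 20-exon Mfn2-201 held 451 of 639 complete reads in replicate 1 and 241 of 316 in replicate 2 (70.6% and 76.3%). Its 6 most read chains all kept an open frame of 757 codons, since they differ in the untranslated exons before the start codon. One of these exons, of 83 bases at chr4:147902928-147903010 on the minus strand of mm10, came in 3 forms. It was used whole in 84.6% of 668 reads in replicate 1 (81.6 to 87.2) and 90.4% of 332 in replicate 2 (86.7 to 93.3), a value named after it was seen. It was used from an unannotated acceptor 17 bases further in, leaving 66 bases, in 12.0% (9.61 to 14.7) and 7.53% (4.93 to 10.9), and skipped in 3.44% and 2.11%. The intervals of the 66-base form overlap between the libraries. These shares of all 3 forms were not tested. The exon before it was also entered from an unannotated acceptor 3 bases further in, in 40 of 608 reads in replicate 1 and 14 of 304 in replicate 2 (6.58% and 4.61%). An unannotated leader exon of 234 bases, also named after its values were seen, was in 1.79% and 1.80% of reads. Inside the coding part, a donor site 3 bases short of the usual one was used in 10 of 718 reads in replicate 1 and 9 of 373 in replicate 2 (1.39% and 2.41%). Donor sites that lengthen an exon by 4 bases were rarer, with 3 of 713 and 2 of 362 reads at 1 place and 4 of 693 and 2 of 342 at another.

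Opa1 had no predominant form, because 2 coding exons near its start were each joined or skipped. They lie 54 bases (chr16:29588823-29588876) and 111 bases (chr16:29597586-29597696) long on the plus strand of mm10. In human OPA1 the corresponding exons are those named 4b and 5b, and exon 5b carries the site at which the protease YME1L cuts the protein. They add 18 codons and 37 codons. The sequences below are those of the GENCODE M21 transcripts, from the C57BL/6J reference, and are shown because every major Opa1 form is defined by them. Capitals mark the exon, and the lower-case ends are the 12 neighbouring bases of an annotated transcript on each side.
Opa1 54-base exon: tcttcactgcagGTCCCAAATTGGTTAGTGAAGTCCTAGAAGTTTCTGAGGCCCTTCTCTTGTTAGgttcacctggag
Opa1 111-base exon: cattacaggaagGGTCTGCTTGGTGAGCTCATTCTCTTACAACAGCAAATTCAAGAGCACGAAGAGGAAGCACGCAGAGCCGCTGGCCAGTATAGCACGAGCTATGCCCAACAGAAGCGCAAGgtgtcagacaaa

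The 54-base exon was included in 40 of 100 reads in replicate 1 (40.0%, 30.3 to 50.3) and 27 of 56 in replicate 2 (48.2%, 34.7 to 62.0). The 111-base exon was included in 68 of 102 reads in replicate 1 (66.7%, 56.6 to 75.7) and 35 of 56 in replicate 2 (62.5%, 48.5 to 75.1). So the longer exon, which holds the cleavage site in the human protein, was in most Opa1 reads of both libraries. Of the reads that crossed both places, 32.0% in replicate 1 and 35.7% in replicate 2 held both exons, 35.0% and 26.8% held the 111-base exon alone, 25.0% and 25.0% held neither, and 8 of 100 reads and 7 of 56 reads held the 54-base exon alone. The 111-base exon was in 32 of 40 reads with the 54-base exon in replicate 1 (80.0%, 64.4 to 90.9) and in 35 of 60 without it (58.3%, 44.9 to 70.9). In replicate 2 the counts were 20 of 27 (74.1%, 53.7 to 88.9) and 15 of 29 (51.7%, 32.5 to 70.6), and the intervals overlap in both libraries. The share was higher with the 54-base exon in both libraries, and overlap does not show that the exons were joined independently. Whether they went together was not tested.

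Both chains with the 111-base exon were outside the annotation although each of their introns is annotated. The 30-exon chain with that exon alone, of 997 codons, held 30 of 101 complete reads in replicate 1 and 15 of 56 in replicate 2 (29.7% and 26.8%). The 31-exon chain with both exons, of 1015 codons, had 27 reads and 18 reads (26.7% and 32.1%). The annotated Opa1-206, with neither exon and 960 codons, had 22.8% and 25.0%, and Opa1-201, with the 54-base exon alone and 978 codons, had 7.92% and 10.7%. Nearly all Opa1 reads began in the same first exon, with 100 of 101 complete reads in replicate 1 and 56 of 56 in replicate 2 using 1 first intron.

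Among the fission genes, Dnm1l was read mostly without its optional exons. It has 3 that passed the reading rule, all coding and on the minus strand of chromosome 16. The 39-base exon (chr16:16342697-16342735) adds 13 codons within the GTPase domain and is best known from brain, and those of 78 bases (chr16:16318764-16318841) and 33 bases (chr16:16318445-16318477) add 26 codons and 11 codons in the variable domain. They are printed as above, on the minus strand and in the order of the transcript, because their presence names the Dnm1l forms.
Dnm1l 39-base exon: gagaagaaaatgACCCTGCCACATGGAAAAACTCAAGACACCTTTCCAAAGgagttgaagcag
Dnm1l 78-base exon: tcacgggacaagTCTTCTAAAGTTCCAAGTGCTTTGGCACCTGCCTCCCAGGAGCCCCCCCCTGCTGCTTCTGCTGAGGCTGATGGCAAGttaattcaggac
Dnm1l 33-base exon: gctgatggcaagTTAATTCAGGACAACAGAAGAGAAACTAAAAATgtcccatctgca

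The 39-base exon was in 13 of 59 reads in replicate 1 (22.0%, 12.3 to 34.7) and 7 of 39 in replicate 2 (17.9%, 7.54 to 33.5). Beside this, all 5 neuron markers were at 0 reads in both libraries, while the 5 Schwann cell and nerve markers summed to 251 CPM in replicate 1 and 160 CPM in replicate 2, and the part of nerve in this inclusion was not tested. Inclusion of the 78-base exon was 14.8% in replicate 1 (6.98 to 26.2) and 15.4% in replicate 2 (5.86 to 30.5), and that of the 33-base exon 8.20% and 5.13%, from 5 reads and 2 reads. Reads with none of the 3 made up 38 of 59 in replicate 1 and 28 of 39 in replicate 2 (64.4% and 71.8%), and the 39-base exon alone was in 11 reads and 4 reads. The annotated Dnm1l-201, with none of them and 699 codons, held 32 of 61 complete reads in replicate 1 and 24 of 41 in replicate 2 (52.5% and 58.5%). Dnm1l-202, with the 39-base exon and 712 codons, held 14.8% and 7.32%, and an unannotated chain with the 78-base exon and 725 codons held 4.92% and 7.32%. All 3 exons stood together in 0 reads and 1 read.

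Mff, which recruits Dnm1l, had the most divided splicing of the 6 by the share of its leading chain. That chain held 31 of 150 complete reads in replicate 1 and 36 of 181 in replicate 2 (20.7% and 19.9%). In all, 43 complete Mff chains were seen, 24 of them in both libraries. Mfn2 had more chains, 55, of which 14 were in both libraries. Only 17 of 1858 genes tested had a lower leading share, beside a median of 75.8%. The reads divided over 4 coding cassette exons, an untranslated leader exon and a pair of acceptors 3 bases apart. The coding exons are of 75 bases (chr1:82737013-82737087), 159 bases (chr1:82741818-82741976), 33 bases (chr1:82745524-82745556) and 60 bases (chr1:82747083-82747142), all on the plus strand. They are printed in transcript order in the same way because they set the Mff proteins apart. In the last line the whole 159-base exon is given without neighbours and the capitals mark the 42 bases kept when an unannotated acceptor inside it was used.
Mff 75-base exon: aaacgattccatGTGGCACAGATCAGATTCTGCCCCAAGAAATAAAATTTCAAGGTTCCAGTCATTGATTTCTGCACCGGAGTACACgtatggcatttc
Mff 159-base exon: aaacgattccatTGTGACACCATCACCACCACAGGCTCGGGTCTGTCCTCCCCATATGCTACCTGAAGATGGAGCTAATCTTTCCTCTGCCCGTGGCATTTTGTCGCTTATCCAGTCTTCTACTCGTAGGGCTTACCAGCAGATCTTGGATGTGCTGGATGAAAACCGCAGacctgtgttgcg
Mff 33-base exon: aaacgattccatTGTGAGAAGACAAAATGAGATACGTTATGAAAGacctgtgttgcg
Mff 60-base exon: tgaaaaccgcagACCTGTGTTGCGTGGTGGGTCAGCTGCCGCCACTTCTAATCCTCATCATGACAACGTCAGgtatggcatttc
Mff inner acceptor: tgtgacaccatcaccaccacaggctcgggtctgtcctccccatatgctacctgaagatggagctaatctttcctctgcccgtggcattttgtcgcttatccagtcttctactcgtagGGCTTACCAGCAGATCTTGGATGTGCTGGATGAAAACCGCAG

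The 75-base exon was included in 75 of 150 reads in replicate 1 (interval 41.7% to 58.3%) and 89 of 179 in replicate 2 (49.7%, 42.2 to 57.3). The 159-base exon was included in 121 of 142 reads in replicate 1 (85.2%, 78.3 to 90.6) and 140 of 174 in replicate 2 (80.5%, 73.8 to 86.1). These counts set the whole exon against skipping and leave out the reads that used its inner acceptor. For both exons the intervals of the libraries overlap. The 33-base exon was in 9.33% of reads in replicate 1 and 14.4% in replicate 2, and the 60-base exon, named after its values were seen, in 96.7% and 93.9%. Among reads without the whole 159-base exon, the 42 bases of the inner acceptor were kept in 8 of 29 in replicate 1 (12.7% to 47.2%) and 6 of 40 in replicate 2 (5.71% to 29.8%), and these intervals overlap. An untranslated exon of 172 bases before the start codon (chr1:82728067-82728238) was in 28.9% of reads in each library, 43 of 149 and 52 of 180. An annotated acceptor that adds 3 bases to a coding exon was used in 28.0% of reads in replicate 1 and 25.8% in replicate 2.

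**Figure D4:**
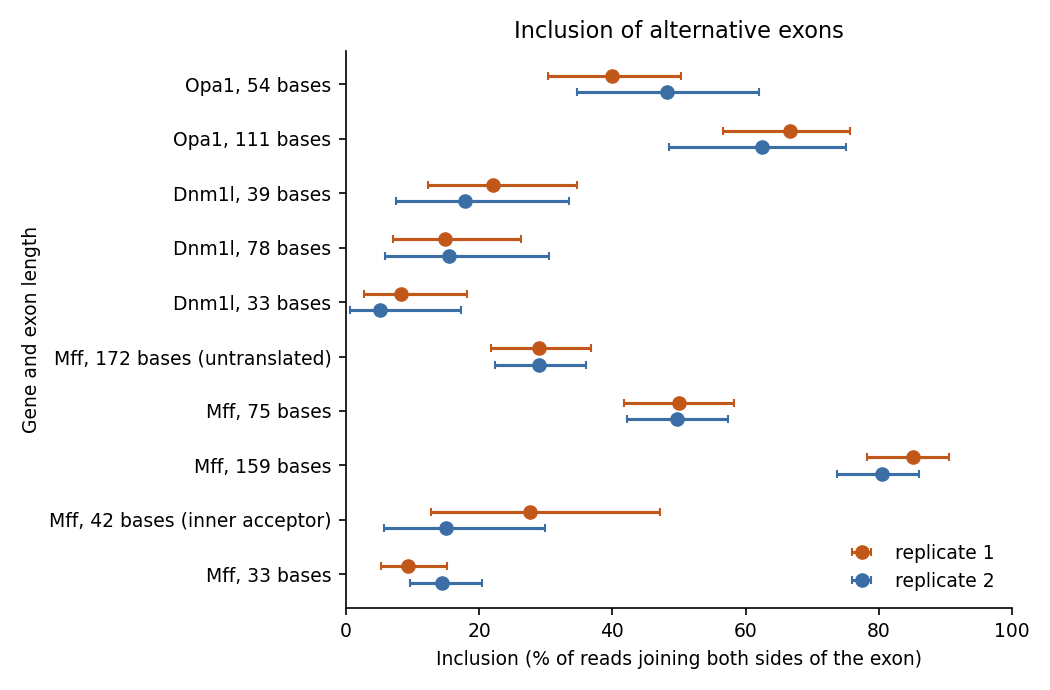
Inclusion of the named alternative exons of Opa1, Dnm1l and Mff, as the percentage of reads joining both sides of the exon, in replicate 1 (upper point) and replicate 2 (lower point), with 95% Clopper-Pearson intervals. The inner acceptor of Mff is counted among reads without the whole 159-base exon, and its reads are left out of the values of that exon. The intervals of replicate 1 and replicate 2 overlap for each exon, and the Mff 75-base exon was in 75 of 150 reads and 89 of 179.

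Inclusion of the 159-base exon of Mff went with that of the 75-base exon and with that of the 60-base exon within reads. The 159-base exon was in 74 of 75 reads with the 75-base exon in replicate 1 (98.7%, lower bound 92.8) and in 47 of 75 without it (62.7%, 50.7 to 73.6). In replicate 2 it was in 86 of 89 reads with the 75-base exon (96.6%, 90.5 to 99.3) and in 53 of 90 without it (58.9%, 48.0 to 69.2). In both libraries the intervals with and without the 75-base exon do not overlap. The 60-base exon was in 121 of 121 reads with the 159-base exon in replicate 1 (lower bound 97.0%) and in 24 of 29 without the whole exon (82.8%, 64.2 to 94.2), and in replicate 2 in 138 of 139 (99.3%) and 30 of 40 (58.8% to 87.3%). As whole combinations, the 75-, 159- and 60-base exons stood together in 63 of 150 reads in replicate 1 and 73 of 179 in replicate 2, the 159- and 60-base exons in 29.3% and 24.6%, and the 60-base exon alone in 10.7% and 11.7%. The 60-base exon was in 75 of 75 reads with the 75-base exon and 70 of 75 without it in replicate 1. In replicate 2 the counts were 87 of 89 and 81 of 90, and the intervals overlap in both libraries. The 33-base exon was in 11 of 75 reads with the 75-base exon and 3 of 75 without it in replicate 1. In replicate 2 it was in 13 of 89 and 13 of 90, with overlapping intervals in both libraries. These shares are given as a description, with no test, since reads of a gene share a library.

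The chains follow these combinations. The most read Mff chain, a new combination of 10 exons and 316 codons, holds the 75-, 159- and 60-base exons. Mff-202, with 9 exons and 291 codons, lacks the 75-base exon and held 14.0% of complete reads in replicate 1 and 12.2% in replicate 2. Mff-212, which has the coding exons of the most read chain and the 172-base leader exon, held 6.67% and 9.94%. Mff-208, with the 60-base exon alone and 238 codons, held 9 of 150 and 13 of 181. Of 16 annotated Mff transcripts, 5 had complete reads.

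**Figure D5:**
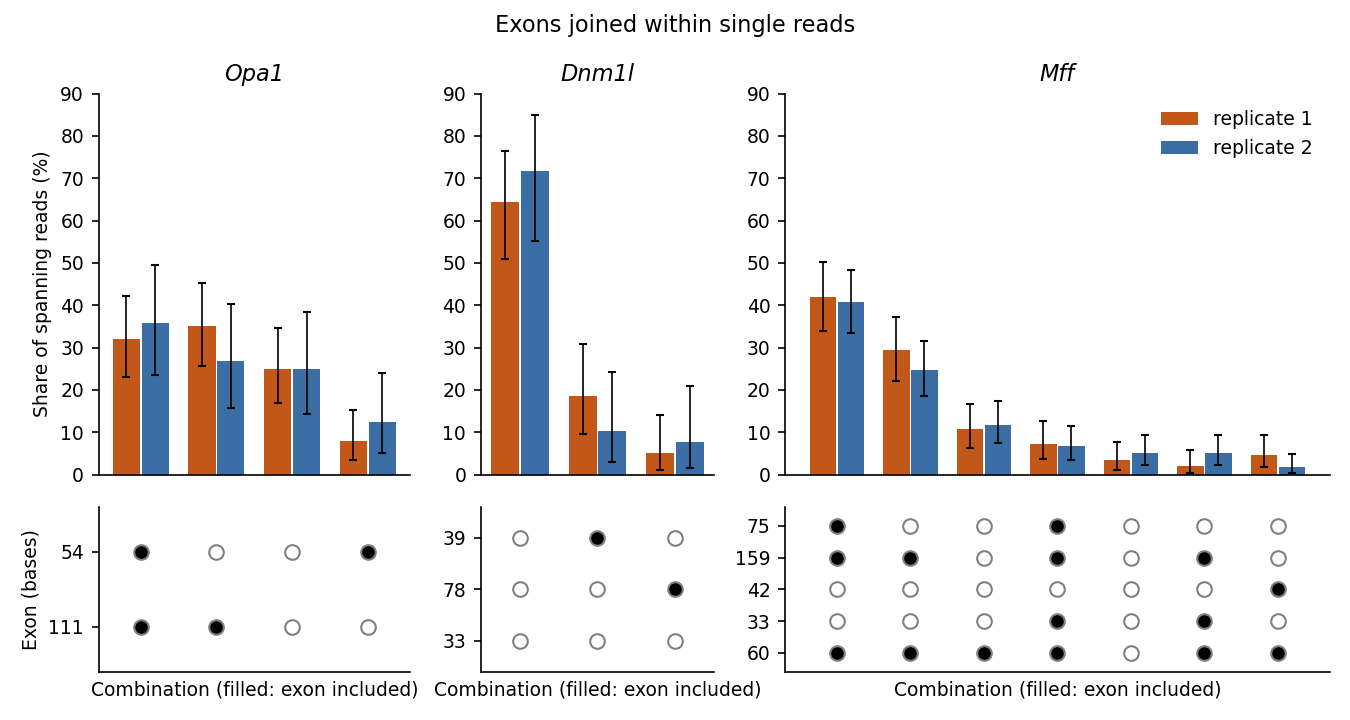
Share of reads (%) with each combination of exons in Opa1, Dnm1l and Mff, for combinations with 5 or more reads over both libraries. The left bar is replicate 1 and the right bar replicate 2, with 95% Clopper-Pearson intervals, and filled circles below mark the exons included, by length in bases. In Mff the 75-base exon appears beside the 159-base exon in the 2 combinations shown that hold it, which hold 63 and 11 of 150 reads in replicate 1.

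Fis1, the shortest gene transcript of the 6, was the least varied. The 5-exon Fis1-201, of 152 codons, held 63 of 64 complete reads in replicate 1 and 166 of 171 in replicate 2 (98.4% and 97.1%). Fis1-202, which begins at an upstream first exon and has 145 codons, held the other 1 read and 5 reads (1.56% and 2.92%). No unannotated Fis1 chain was complete. In leading share Fis1 exceeded 1793 of the 1858 genes tested and Mfn1 exceeded 1601, against 17 for Mff and 60 for Opa1.

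The make-up of the transcripts was compared between the libraries by the same kind of exact test on shares. The leading chain differed in share for none of the 6 genes (Fisher's exact test, adjusted p = 0.597 for Mfn2 and 1.00 for the others, over 1858 genes, 1.72% of which were called), and 0 of the 6 had an unadjusted p under 0.05. Exon inclusion differed for 0 of 14 exons of these genes at an adjusted or unadjusted p of 0.05, beside 2.50% of 2041 exons. For the Mfn2 leader exon these tests set each form against skipping alone, 565 of 588 reads in replicate 1 and 300 of 307 in replicate 2 for the 83-base form, and 80 of 103 and 25 of 32 for the 66-base form. The median absolute difference in inclusion was 2.91 percentage points over the 14 and 2.16 over all 2041, and the largest of the 14 was 12.6, for the inner acceptor of Mff. These tests do not show that the shares were equal, as the widths of the intervals above show. All 10 coding exons or exon parts among the 14 had a length that is a multiple of 3, so that they keep the reading frame, beside 49.0% of all 2041 exons, coding or not.

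Genes of related functions, and paralogs of the members, were taken as 7 lists. Their counts stand beside 14.9% of all genes tested higher and 11.1% lower in replicate 1. With the length trend removed, 487 of 8752 genes were higher and 662 lower. Of 16 tested dynamin adaptors and fission regulators, 4 were higher and 1 lower in replicate 1. The median log2 ratio was 0.53, beside 0.18 over all genes tested. Akap1, a scaffold that brings protein kinase A to the outer membrane, was read 103 times in replicate 1 and 42 times in replicate 2 (log2 ratio 1.83, adjusted p = 5.85e-12 by Fisher's exact test). Mief2, which encodes the Dnm1l receptor MiD49, had 138 reads and 114 reads (0.82, adjusted p = 9.35e-05), and Pgam5, a phosphatase, had 42 reads and 30 reads (1.02, adjusted p = 0.0182, but 0.87 with adjusted p = 0.0799 once the length trend was removed). Bnip3, a mitophagy receptor and the most read of the list, was lower, with 310 reads and 615 reads (-0.45, adjusted p = 7.92e-05). Mtfr1l had 251 reads in replicate 1 and 370 in replicate 2 (-0.02). With the length trend removed, 2 of the list were higher and 1 lower.

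Of 10 genes of inner-membrane proteases, prohibitins and their partners, 1 was higher and 1 lower in replicate 1, a number of calls near the 26.0% of all genes, with a median log2 ratio of 0.04. Afg3l2, a subunit of the m-AAA protease, had 164 reads in replicate 1 and 127 in replicate 2 (0.91, adjusted p = 1.35e-06 by Fisher's exact test), but with the length trend removed its log2 ratio was 0.46 (adjusted p = 0.0521). Dnajc19, a prohibitin partner, had 71 reads and 261 reads (-1.33, adjusted p = 3.17e-12). The scaffold genes Phb and Stoml2 had log2 ratios of 0.06 and -0.27 and did not pass. Oma1 and Yme1l1, the proteases that cut Opa1, named outside the rule, were read at 21.5 and 28.0 CPM in replicate 1 and at 22.5 and 28.2 CPM in replicate 2. Of 7 tested regulators of mitofusins, 1 was higher and 1 lower: Vcp, which extracts ubiquitinated mitofusins, with 526 reads in replicate 1 against 377 in replicate 2 (1.02, adjusted p = 2.02e-24), and the kinase gene Pink1 with 1137 reads and 1823 reads (-0.14, adjusted p = 0.0433). The ubiquitin ligase gene March5 had 71 reads and 118 reads (-0.19).

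Cristae genes and transport genes stood at opposite ends of the lists. Of 8 tested cristae genes none was higher and 5 were lower in replicate 1, with a median log2 ratio of -0.64, among them Chchd10 with 704 reads in replicate 1 and 1828 in replicate 2 (-0.83, adjusted p = 7.65e-40 by Fisher's exact test), Minos1 with 276 reads and 726 reads (-0.85) and Chchd2 with 286 reads and 591 reads (-0.50). Of 7 transport genes, 5 were higher and none lower, with a median of 1.05. Kif1b, which encodes a kinesin, was read 333 times in replicate 1 and 109 times in replicate 2 (2.15, adjusted p = 3.07e-47), Kif5b had 180 reads and 99 reads (1.40) and the adaptor gene Trak1 had 160 reads and 112 reads (1.05). With the length trend removed, 3 cristae genes were lower, Chchd10, Minos1 and Samm50, and Chchd2 was at 0.06 (adjusted p = 0.841). Kif1b, Kif5b and Trak1 were then the 3 transport genes that were higher. Of 9 biogenesis regulators 1 was higher and 1 lower: Esrra, for a nuclear receptor, was read 178 times in replicate 1 and 1552 times in replicate 2 (-2.58, adjusted p = 2.25e-172), and Perm1 had 123 reads and 130 reads (0.46, adjusted p = 0.0482), which turned to -0.10 (adjusted p = 0.870) with the length trend removed. Tfam, for the mitochondrial transcription factor, had 37 reads and 44 reads (0.30) and did not pass.

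Of the paralogs of members, 1 of 3 tested was higher in replicate 1, Atl2, an atlastin gene of the endoplasmic reticulum, with 202 reads in replicate 1 and 227 in replicate 2 (0.37, adjusted p = 0.0339 by Fisher's exact test). With the length trend removed it was at -0.16 (adjusted p = 0.593) and none of the list was higher. Dnm2, the ubiquitous dynamin gene, had 55 reads and 70 reads (0.20), and Dnm3 had 6 reads and 20 reads (-1.12). Dnm1, for the neuronal dynamin, had no read in replicate 1 and 2 reads in replicate 2.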

How the data were processed

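The deposited tables give, per the file headers, counts of reads per transcript model with no normalization, made by the authors with TALON gene models, which the deposited annotation names as its source. Notes deposited with the files name mm10 and GENCODE M21. The sources used here do not name the platform, aligner, versions or read filters. Reads numbered 1100764 in replicate 1 and 1588661 in replicate 2, of which 30993 and 31067 were spike-ins and were left out.

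Reads were summed per annotated gene, and per intron chain, with chains matched between the libraries. Log2 ratios had 0.5 reads added. Fisher's exact tests with Benjamini-Hochberg adjustment at 0.05 used 10 reads for genes, and 20 reads in each library with 5 of the rarer form for chains and exons. An exon's informative reads join both its sides, with the exon whole or skipped whole. Open frames run from the annotated start. Intervals are 95% and cover counting error only, since the sources name no molecular identifiers. The labels do not say whether both muscles came from separate animals, though they number animals 3 and 4, so p-values measure reads of these 2 libraries. Tests run on simulated reads found 67.0% of 200 genes changed 2-fold, all picked among genes with 50 or more reads. Of 8692 unchanged genes, 4 were called. At a shift of 30 percentage points the tests found 63.0% of 100 changed leading chains and 69.0% of 100 changed exons. The simulated reads held counting error only, with no length trend and no difference between animals, so these rates do not carry over to the real libraries. edgeR's quasi-likelihood test was not run, because 1 group has no contrast. Tools were scipy 1.17.1, statsmodels 0.14.6, pandas 2.3.3 and numpy 2.4.6 in Python 3.11.15, and DESeq2 1.42.0 and edgeR 4.0.16 in R 4.3.3.

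Members and gene lists were chosen with earlier results of these data known. Named were all 6 genes, chains with 5 or more reads (at most 6 a gene), exons at 5% to 95% inclusion, and in each gene list the 3 most read genes and up to 3 past the test each way. Micos13 and Mtfr2 had no reads under these names. Model ends follow reads, so lengths of untranslated regions were not measured. Mfn2, Dnm1l and Mff overlap antisense or other annotated genes, and counting by strand is not stated. Alternatives were other scalings, count minimums, model classes, a removed length trend (lowess on log2 length), a fixed dispersion and leaving out each replicate.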

Additional observations from a re-analysis of the deposited data

Results flagged for a closer look

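Reads were also found on the strand opposite Fis1, at an unannotated locus that enters no comparison above. It had 5 reads in replicate 1 and 14 reads in replicate 2, against 69 reads and 194 reads of Fis1 itself. The models have 1 exon each and share their edge at chr5:136953590 of mm10, beside the end of the first exon of Fis1-202, and run to 136956451 in replicate 1 and to 136954468 in replicate 2. They drew attention because they lie outside the main measurement and exceed what 0 counts would allow in both libraries. Unannotated antisense reads lay within the other 5 genes too, with at most 3 reads a locus in either library except for 1 Mfn1 locus of 5 reads in replicate 2. Whether any of these are transcripts of their own was not tested.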

How the results depend on the processing

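The log2 ratios of Mfn2, Opa1, Dnm1l and Fis1 kept their direction and, apart from the length trend and fixed dispersion, their side of the threshold under the other scalings, count minimums and model classes. With the length trend removed, 1149 genes in place of 2311 were called and 1 of the 6 in place of 5, and Mfn1 turned to -0.07. The trend carries the level of all ratios with it, and the median change per gene was -0.31. With the dispersion set to 0.04, 200 genes and 0 of the 6 passed edgeR's exact test. The calls over all genes were 57.5% higher in replicate 1 (1328 higher, 983 lower), but 39.8% with TMM (843 and 1274), 40.1% with DESeq2 size factors (854 and 1274), 71.6% with annotated models alone (1479 and 588), 42.4% without the length trend (487 and 662) and 47.5% with edgeR (95 and 105). With annotated models alone the 6 genes summed to 579 CPM in place of 990, since fewer reads enter. Mfn2 was then at 299 in place of 504, Mff at 40.6 in place of 131 and Opa1 at 20.9 in place of 69.8. Fis1, at 84.8 in place of 94.5, then stood above Mff in mean CPM. Without 1 of the replicates the sum ranged over 723 to 1256 CPM and the complete share over 78.8% to 87.0%. Taking as complete only chains that hold an annotated first and last intron, the mean complete share of the 6 genes was 79.9% in place of 82.9%. Mfn2 was then at 71.6% in place of 76.6%, Opa1 at 88.0% in place of 92.1% and Mff at 98.0% in place of 97.9%. With all reads as the denominator, 270 leading shares were called in place of 32, and 1 of the 6, Mfn1, in place of 0 (adjusted p = 0.00349 by Fisher's exact test). That denominator includes truncated and genomic reads, and otherwise the cause of these changes was not tested. Tests between libraries have no value without 1 of them. No paired analysis was possible because there is 1 group. Depth limits Dnm1l and Opa1 most, with 41 and 56 complete reads in replicate 2.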
